A study of Rattus norvegicus with 6 samples.

Results

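Complement C1q and the complement regulators are described here in the prelimbic cortex (PL) of rats with spared nerve injury (SNI). The set held 9 genes. C1qa, C1qb and C1qc encode the subunits of C1q, C1s encodes a protease that C1q carries, C3 is the central component, Cd59 and Serping1 are inhibitors, and C3ar1 and C5ar1 are receptors. A member was measured by every probe set of the array whose only gene symbol was that member, and this gave 1 probe set for each of the 9 genes, 9 of the 31042 probe sets and of 14217 genes compared, so that the gene mean and the probe set value were the same number. The 9 genes were chosen by name, with the differences between SNI and control in these same arrays already known. The differences of the members are therefore given as a description, with no test.

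The arrays read total RNA of the PL contralateral to the injury in 6 samples of male Sprague-Dawley rats, all taken at day 14. In the 3 SNI samples the tibial and common peroneal branches of the left sciatic nerve had been transected and the sural branch spared. The other 3 samples are labelled only as control. The surgical protocol describes a sham operation, in which the nerves were exposed and left uncut, but does not say that the controls of the arrays received it. Neither the labels nor the methods say whether each sample was 1 rat or a pool, so the p-values below reflect how far these samples vary, and part of that variation may be technical.

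Complement is a cascade of plasma and tissue proteins that marks surfaces for removal. C1q recognizes antibodies, dying cells and some synapses, activates the proteases C1r and C1s, and leads to the cleavage of C3, whose fragments are ligands for receptors on microglia and other myeloid cells. In the healthy brain C1q is made mainly by microglia, and in rodents C1q and C3 take part in the removal of synapses.

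Each value below is the deposited log2 value relative to the median of that probe set across all 6 samples, so a value of 0.10 means a signal above that median by that log2 amount. The values do not show how abundant an mRNA was, and no gene is set against another by level. Median values of the 6 arrays lay between −0.01 and 0.01. The spread between samples was wider in the control group, with a median SD of 0.0673 over the probe sets in SNI samples and 0.107 in control samples, and the control SD was the larger for 70.1% of probe sets. The 18 probe sets of the hybridization controls read foreign transcripts added in known amounts when an array is hybridized. Their mean was 0.19, 0.05 and 0.10 in SNI samples 1, 2 and 3, against −0.05, −0.20 and −0.22 in control samples 1, 2 and 3. The groups did not overlap in this technical measure, and its value is given again beside C1q.

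The 3 subunit genes lie side by side on chromosome 5, at chr5:154402276-154419933 in the RefSeq annotation of the GRCr8 assembly, within 17.7 kb and with no other annotated gene between them. C1qb occupied bases 154402276 to 154407827, C1qc bases 154410845 to 154414208 and C1qa bases 154417086 to 154419933. The sequences around the starts of C1qa and C1qb are shown because these genes of 1 locus had the highest differences among the members. Each window of 300 bases runs from 250 bases before the annotated start to 50 bases after it, on the minus strand, at chr5:154419884-154420183 for C1qa and chr5:154407778-154408077 for C1qb. Capitals mark an ETS core (GGAAGT) or a purine box of the kind that PU.1, a myeloid member of the ETS family, binds (GAGGAA), in either orientation.

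C1qa: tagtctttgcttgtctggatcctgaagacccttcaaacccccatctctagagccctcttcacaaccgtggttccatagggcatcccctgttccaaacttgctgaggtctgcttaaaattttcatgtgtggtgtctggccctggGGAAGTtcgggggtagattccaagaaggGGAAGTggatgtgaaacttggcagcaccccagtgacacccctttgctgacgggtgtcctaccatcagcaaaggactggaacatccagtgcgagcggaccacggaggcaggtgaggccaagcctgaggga

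C1qb: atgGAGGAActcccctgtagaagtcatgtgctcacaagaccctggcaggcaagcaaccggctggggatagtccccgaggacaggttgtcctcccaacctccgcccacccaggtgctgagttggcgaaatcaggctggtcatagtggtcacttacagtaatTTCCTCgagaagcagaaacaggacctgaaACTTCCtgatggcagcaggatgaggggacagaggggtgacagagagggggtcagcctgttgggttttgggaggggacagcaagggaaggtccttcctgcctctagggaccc

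In C1qa the ETS core stood at positions −107 to −102 and −79 to −74, counted from the annotated start. The C1qb window held 1 ETS core in the reverse orientation at −61 to −56, and a purine box at −247 to −242 and, in reverse, at −90 to −85. Neither motif is rare. GGAAGT occurred in 22.6% of the 33469 promoter windows of that length, GAGGAA in 27.6% and both in 7.87%. The other 4 motifs searched on both strands were AP-1 (TGANTCA, 7.33% of windows), the gamma-activated STAT element (TTCNNNGAA, 8.87%), an interferon regulatory element (a pair of GAAA runs separated by NN, 3.92%) and the TATA box (TATAAA, 14.2%). Of these, the STAT element matched C1qa at −90 to −82 and AP-1 matched C3ar1 at −72 to −66, and the C3 window held none of the 6. Windows were at hand for these 4 members, the motifs were picked after the sequences had been read, and a match describes letters and is not evidence that a factor binds.

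All 3 C1q subunits were higher in every SNI sample than in any control sample. C1qa, the A chain, had values of 0.32, 0.11 and 0.20 in SNI samples 1, 2 and 3, against −0.11, −0.14 and −0.18 in control samples 1, 2 and 3. The lowest SNI sample lay above the highest control sample by more than the whole control range. Mean values were 0.21 ± 0.11 in SNI and −0.15 ± 0.04 in control samples (SD, n = 3 each), a difference of 0.36 (SE 0.07) or 1.28-fold. With each sample left out in turn the difference stayed between 0.30 and 0.41.

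C1qb, the B chain, showed the same separation. Its values were 0.23, 0.11 and 0.09 in SNI samples 1, 2 and 3, against −0.18, −0.09 and −0.11 in control samples 1, 2 and 3. SNI sample 1 was the highest for both chains. The means were 0.14 ± 0.08 in SNI and −0.12 ± 0.05 in control samples (SD, n = 3 each), which gave a difference of 0.26 (SE 0.07) or 1.20-fold.

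C1qc, the C chain, was nearly level across the SNI samples, at 0.06, 0.07 and 0.08, against −0.29, −0.12 and −0.06 in control samples 1, 2 and 3. Its spread came almost wholly from the control group, where sample 1 was low. The means were 0.07 ± 0.01 in SNI and −0.15 ± 0.12 in control samples (SD, n = 3 each), and the difference was 0.22 (SE 0.07) or 1.17-fold. With each sample left out in turn, C1qb stayed between 0.22 and 0.29 and C1qc between 0.16 and 0.27.

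**Figure D1:**
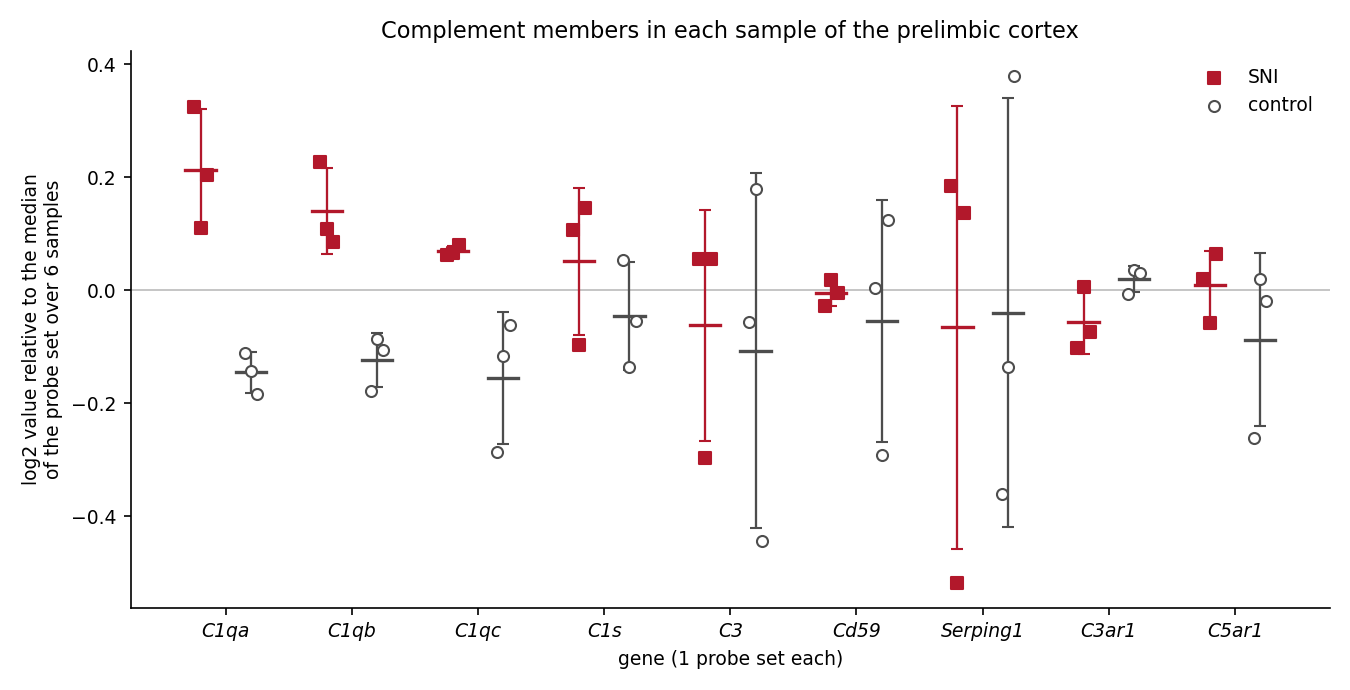
Values of the 9 complement members in each sample (vertical axis, log2 relative to each gene's median across all 6), with SNI samples as filled squares and control samples as open circles; horizontal lines are group means and bars are SD (n = 3 each). The groups separate for C1qa, C1qb and C1qc and overlap for the other 6 genes, and Serping1 has the widest range, 0.90.

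The order of the chains by difference, A above B above C, did not hold up against the spread between samples. C1qa exceeded C1qb by 0.09 in its difference and C1qc by 0.13, C1qb exceeded C1qc by 0.04, and for each of these pairs the per-sample gaps of the SNI and control groups overlapped. Against the background of the array, 3 of the 9 members were higher in SNI without overlap, compared with 8.35% of all probe sets. The same 3 had an unadjusted limma p under 0.05 in the direction of higher in SNI, compared with 5.6% of all probe sets. No member passed an adjusted p of 0.05 (Benjamini-Hochberg over 31042 probe sets), where 0.0322% of all probe sets passed. None exceeded 1.5-fold with an unadjusted p under 0.05, where 0.364% did. The genes were chosen on this contrast, so these counts are printed beside the background and nothing is read from them.

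The mean of the 3 subunits was 0.20, 0.10 and 0.12 in SNI samples 1, 2 and 3, against −0.19, −0.11 and −0.12 in control samples 1, 2 and 3, a difference of 0.28. The hybridization controls moved the same way, by 0.27. With their mean per array as a covariate, the difference was 0.16 (SE 0.15) for C1qa, 0.26 (SE 0.16) for C1qb and 0.44 (SE 0.14) for C1qc. All 3 subunits kept their direction in that fit and the standard errors were about double. Unadjusted limma p-values were then 0.313 for C1qa, 0.139 for C1qb and 0.0175 for C1qc. The control mean did not overlap between the groups, so this fit cannot cleanly separate its shift from the group difference.

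Listed microglial genes outside complement mostly had differences above 0 as well (21 of 22). This list, like the other gene lists, was chosen with earlier results of these data known, so its counts are a description. Of 28 listed markers of microglia 22 were measured, and 10 of them were higher in SNI at an unadjusted limma p under 0.05 and none was lower, where over all 14217 genes 3.96% were higher and 9.19% lower at that threshold. No microglial marker passed an adjusted p of 0.05 over those genes, and neither did any other gene (0% of 14217). By the methods' t-test, unadjusted, 6 of the 22 passed, where 12.6% of all genes did. Without SNI sample 1 the limma count was 6, where 8.28% of all genes passed in either direction. With the hybridization controls as a covariate it was 4, namely Cd68, Cd53, Ly86 and Slc2a5, where 8.47% of all genes passed. None of these 4 was among the 10 of the main fit, and none of those 10 passed with the covariate. The median difference of the list was 0.17, and of all genes −0.01.

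Some of the receptors used to define microglia in the brain passed. P2ry12, the ADP receptor of surveying microglia, had values of 0.27, 0.10 and 0.18 in SNI samples 1, 2 and 3. In control samples 1, 2 and 3 it had −0.13, −0.10 and −0.41, and its difference was 0.39 (SE 0.09, limma adjusted p = 0.201). Its 2 probe sets had differences of 0.26 and 0.53, below and above that of C1qa (0.36). Csf1r, the receptor for the survival factor CSF-1, differed by 0.29 (SE 0.07, limma adjusted p = 0.210), and the lysosomal membrane protein gene Laptm5 by 0.27 (SE 0.06, limma adjusted p = 0.201). None of the 3 had overlapping groups. Other defining genes were closer to 0 or overlapped, among them Cx3cr1, the fractalkine receptor, at 0.18, Aif1, which encodes IBA1, at 0.14, Trem2, a lipid-sensing receptor, at 0.11, and Olfml3, the 1 marker with a negative difference, at −0.13. The 2 probe sets of Trem2 did not agree, with differences of −0.01 and 0.23. Cd68, a lysosomal marker often used for phagocytic microglia, differed by 0.09 with overlapping groups.

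C1qa stood near the top of these genes and C1qc in their middle range. Of the 22 markers, 1 had a larger difference than C1qa, 4 than C1qb and 8 than C1qc. The mean of the markers was 0.12, 0.05 and 0.05 in SNI samples 1, 2 and 3, against −0.13, −0.07 and −0.10 in control samples 1, 2 and 3, a difference of 0.17. The C1q mean minus the marker mean was then 0.08, 0.04 and 0.08 in SNI samples 1, 2 and 3, against −0.06, −0.05 and −0.02 in control samples 1, 2 and 3, so C1q exceeded the markers by 0.11 in its difference without overlap between the groups. Set against only 6 measured classical markers (P2ry12, Tmem119, Csf1r, Cx3cr1, Aif1 and Trem2), that excess was 0.053. The subunits were chosen with their differences already known, which favours an excess over a marker list. Both values are therefore given as a description and nothing is read from them. In tissue RNA, more cells of a type and more RNA per cell cannot be told apart, and the part of either in the C1q values was not tested.

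**Figure D2:**
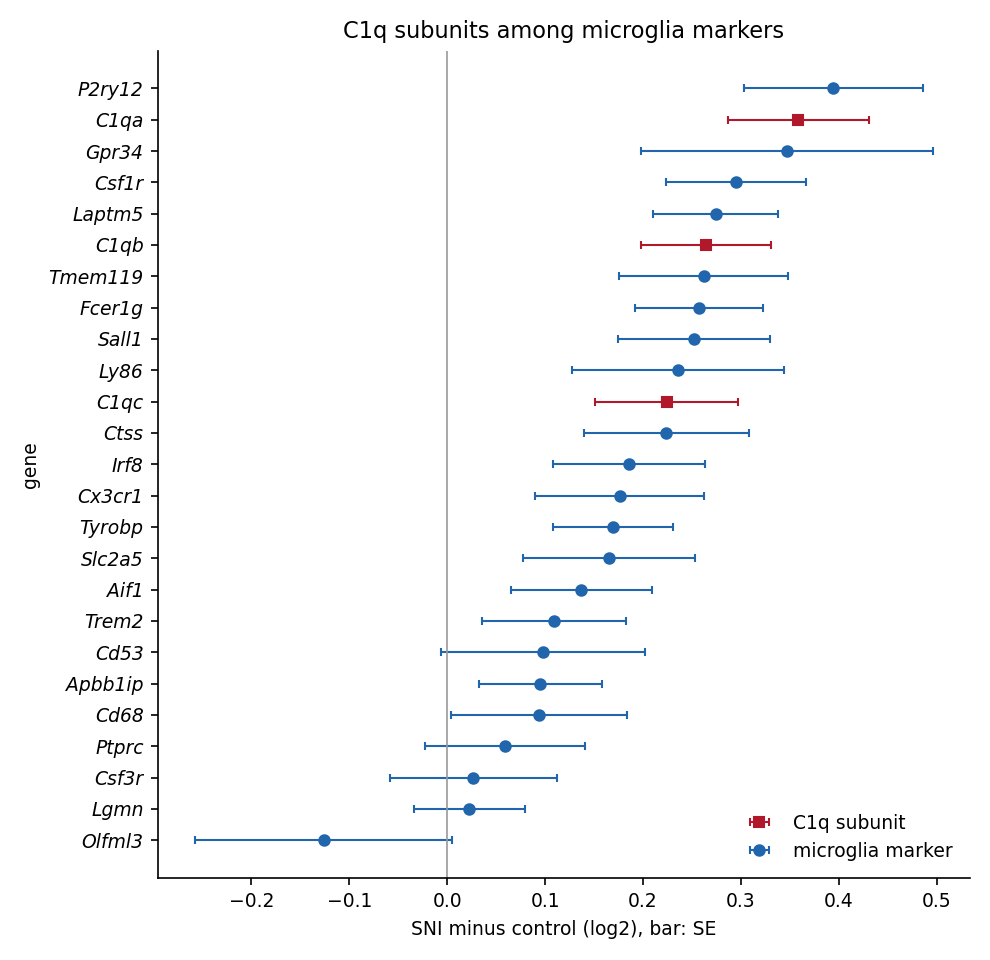
Difference between SNI and control samples (horizontal axis, log2, bars are limma SE, 3 samples per group) for the 3 C1q subunits (squares) and 22 microglia markers outside complement (circles), ordered by size. Only P2ry12 lies above C1qa, C1qb and C1qc fall among the markers, and 21 of the 22 markers have a difference above 0.

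Other cell types that can contribute complement or carry RNA into the dissection were read in the same way. At an unadjusted limma p under 0.05, 3.96% of all 14217 genes were higher in SNI and 9.19% were lower. The mean of the blood genes differed by 0.18 without overlap, with 3 of 8 higher and 0 lower at an unadjusted limma p under 0.05. The erythroid genes Hbb (0.49) and Alas2 (0.44) and the monocyte receptor Ccr2 (0.18) were those 3, and the neutrophil genes S100a8 and S100a9 differed by −0.03 and 0.13. Border macrophages had 1 of 9 higher (Lyve1, 0.17) and a mean difference of 0.02. Endothelium had 3 of 11 higher (Cldn5, Slco1a4 and Slc2a1) with a mean difference of 0.11, and oligodendrocyte precursors had 2 of 5 higher (Cspg4 and Pdgfra) with a mean difference of 0.17. In both of these lists the group means did not overlap, so microglia were not the only glial or vascular list with higher values in SNI. By the methods' t-test, unadjusted, 0 of 8 blood genes and 0 of 9 border macrophage genes passed. For endothelium the count was 3 of 11 and for oligodendrocyte precursors 3 of 5, where 12.6% of all genes passed.

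At an unadjusted limma p under 0.05, where 3.96% of all genes were higher and 9.19% lower, astrocytes had 1 of 11 higher (Aldoc, 0.16). Their mean difference was 0.11. A count of 1 in a list of this size is not read as a result. Of 22 genes of reactive astrocytes, a state in which C3 is known to be induced, 0 were higher and 1 was lower (Hspb1, a small heat shock protein, −0.42), with a mean difference of −0.05. Neurons had 1 of 11 higher (Camk2a, 0.29) and 2 lower (Syt1, −0.38, and Snap25, −0.13), with a mean difference of −0.11 and 9 of 11 differences below 0. Oligodendrocytes had 0 of 9 higher and 1 lower (Cldn11, −0.33), with a mean difference of −0.14 and 8 of 9 below 0. Both of these means ran opposite to that of the microglia list, with overlapping groups. The lists of pericytes and smooth muscle (9 genes), choroid plexus (6) and meninges and fibroblasts (11) had no gene past an unadjusted limma p of 0.05 in either direction. The part of these cell types in the values of the complement members was not tested.

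C1s, the protease activated within the C1 complex, overlapped between the groups. Its values were 0.11, −0.10 and 0.14 in SNI samples 1, 2 and 3, against 0.05, −0.14 and −0.05 in control samples 1, 2 and 3. The second sample was the lowest in each group. The difference was 0.10 (SE 0.09), and with each sample left out in turn it lay between 0.05 and 0.17. It turned to −0.16 (SE 0.17) with the hybridization controls as a covariate. C1r, its partner protease and its neighbour on chromosome 4 (the pair spans chr4:159099013-159128736), differed by −0.07 (SE 0.11, limma adjusted p = 0.832). The groups overlapped for both proteases that C1q carries.

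C3, the component on which the pathways of complement converge, varied widely in both groups. Its values were 0.06, −0.30 and 0.06 in SNI samples 1, 2 and 3, against −0.06, 0.18 and −0.44 in control samples 1, 2 and 3. The highest and the lowest of the 6 were both control samples. The difference was 0.04 (SE 0.16), and its SD within groups was larger than that of 97.6% of probe sets. It was −0.01 without SNI sample 1, −0.01 without SNI sample 3 and −0.12 without control sample 3, so its direction rested on single samples. The covariate turned it as well, to −0.30 (SE 0.35).

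The inhibitors showed no separation either. Cd59 encodes the membrane protein that blocks the last step of the membrane attack complex, and its probe set carries the rat symbol Cd59b, for which RefSeq lists Cd59 as a synonym. Its values were −0.03, 0.02 and −0.0046 in SNI samples 1, 2 and 3, against 0.0046, −0.29 and 0.12 in control samples 1, 2 and 3. The SNI samples lay close together inside the range of the controls. The difference was 0.05 (SE 0.10) and became −0.07 without control sample 2.

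Serping1, the inhibitor of C1r and C1s, had the widest range of the 9 members, 0.90. Its values were 0.19, −0.52 and 0.14 in SNI samples 1, 2 and 3, against −0.36, −0.14 and 0.38 in control samples 1, 2 and 3. High and low samples occurred in both groups. The difference was −0.03 (SE 0.23), became 0.20 without SNI sample 2, 0.18 without control sample 3 and 0.12 with the hybridization controls as a covariate, and its SD within groups was larger than that of 99.4% of probe sets.

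Serping1 shared its 3 highest samples, in any order, with most listed genes of fibroblasts and meninges. Its 3 highest samples were SNI 1, SNI 3 and control 3, and 9 of the 11 markers of meninges and fibroblasts, Col1a1, Col1a2, Col3a1, Dcn, Igf2, Ptgds, Slc6a13, Fmod and Ogn, had the same 3 samples on top. Over all genes this held for 2.92%. The mean of the 11 markers was 0.33, −0.28 and 0.14 in SNI samples 1, 2 and 3, against −0.23, −0.23 and 0.88 in control samples 1, 2 and 3. The other regulator with SNI 1, SNI 3 and control 3 on top was Vtn, which encodes vitronectin. Its values were 0.18, −0.05 and 0.05 in SNI samples 1, 2 and 3, against −0.38, −0.40 and 0.20 in control samples 1, 2 and 3. Among other lists, the same 3 samples were on top in 3 of 9 genes of pericytes and smooth muscle and 2 of 6 of choroid plexus. They were on top in 2 of 17 proteins with a C1q domain outside complement and in 0 of 22 microglia markers. In any further list, this held for at most 1 gene. This pattern was looked for after the values of Serping1 had been seen, and the part of meningeal or vascular tissue in the Serping1 values was not tested.

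**Figure D3:**
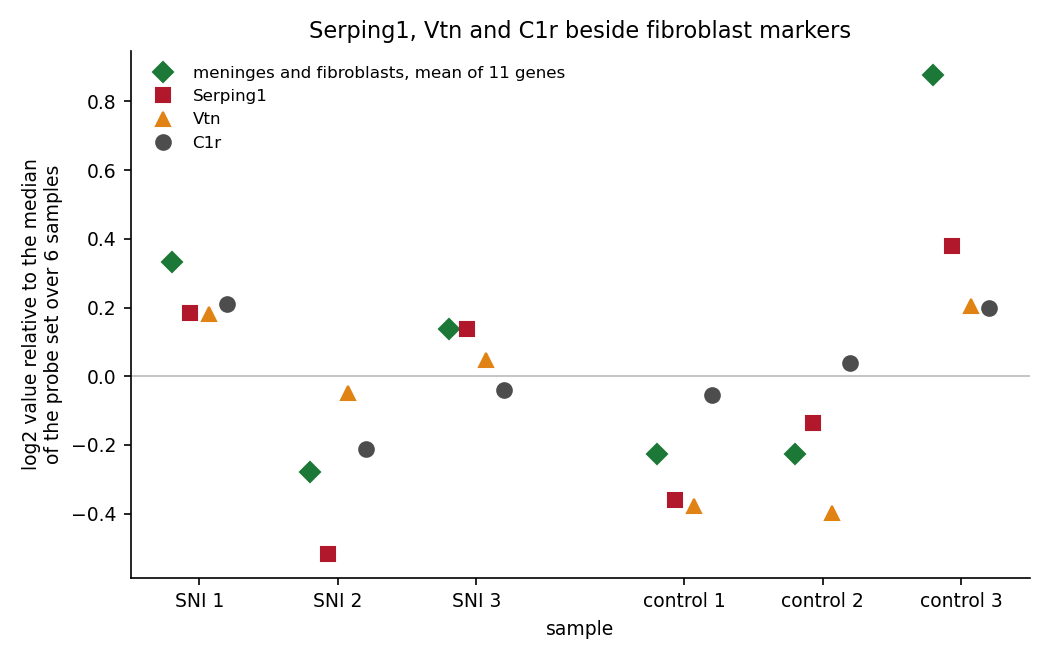
Values per sample (vertical axis, log2 relative to the median over the 6 samples) of Serping1 (squares), Vtn (triangles), C1r (circles) and the mean of 11 markers of meninges and fibroblasts (diamonds), with the 3 SNI samples left of the 3 control samples. Serping1, Vtn and the marker mean have the same 3 samples on top, SNI 1, SNI 3 and control 3, which C1r does not.

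C3ar1, the receptor for the C3 cleavage product C3a, was the most even member. Its values were −0.10, 0.01 and −0.07 in SNI samples 1, 2 and 3, against −0.01, 0.04 and 0.03 in control samples 1, 2 and 3. SNI sample 2 fell within the control range and the other SNI samples lay below it. The difference was −0.08 (SE 0.06), and it stayed below 0 with each sample left out in turn, between −0.11 and −0.05. With the hybridization controls as a covariate it turned to 0.03 (SE 0.13).

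C5ar1, the receptor for C5a, had values of 0.02, −0.06 and 0.06 in SNI samples 1, 2 and 3, against −0.26, 0.02 and −0.02 in control samples 1, 2 and 3. Control sample 1 stood below the other 5. The difference was 0.10 (SE 0.09) and came to 0.01 without that sample and to 0.33 (SE 0.18) with the hybridization controls as a covariate. Both receptors are expressed by myeloid cells, and the groups overlapped for both.

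The rest of the pathway was read from lists of 51 other complement genes, of which 35 were measured by a probe set with a single symbol. Of the 35, 0 had an unadjusted limma p under 0.05, where 13.2% of all 14217 genes did, and 1 passed the methods' t-test (Colec11). None passed an adjusted p of 0.05. Differences were above 0 for 24 and below 0 for 11, against 45.2% of all genes above 0, with a median of 0.03 and a range from −0.16 (C4bpb, the beta chain of the C4b-binding protein) to 0.25 (Vtn). In 2 of the 35 the groups did not overlap, where 20.1% of all genes had no overlap. Without control sample 2 the count at an unadjusted p under 0.05 was 7, and 23.1% of all genes then passed. Without control sample 3 it was 3, where 10.3% of all genes passed, and without control sample 1 it was 1, where 11.9% did.

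Among initiators, the recognition molecules and proteases of the classical and lectin pathways, 8 of 10 were measured. Masp1, the lectin pathway protease, had 0.08, 0.05 and 0.06 in SNI samples 1, 2 and 3, against −0.09, 0.02 and −0.12 in control samples 1, 2 and 3, a difference of 0.12 (SE 0.06, limma adjusted p = 0.424). Colec11, a collectin, differed by 0.11 (SE 0.05, limma adjusted p = 0.440). These were the 2 complement genes outside the 9 members whose groups did not overlap. Mbl1, a mannose-binding lectin, differed by 0.17 with overlap.

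The components and convertase genes showed small differences, from −0.01 to 0.14 with a median of 0.06 over the 8 of 13 that were measured. Genes of the terminal complex, C5, C6, C8a, C8b, C8g and C9, all overlapped between the groups. C2, C4a, C4b, Cfb and C7 had no value here, because no probe set carried any of them as its only symbol. The middle of the classical pathway, between C1q and C3, was therefore read only at C1s and C1r.

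Of the other regulators, 10 of 15 were measured, with a median difference of 0.02. Cd55, which speeds the decay of the C3 convertase, had the smallest unadjusted p of the 35, 0.0562, at a difference of −0.15 (limma adjusted p = 0.394). Clu, clusterin, which binds the terminal complex, differed by 0.03 and Cd46, a cofactor for C3b cleavage, by −0.04. Receptors and C1q binders, 9 of 13 measured, had a median of −0.01. Itgam and Itgb2, the chains of complement receptor 3, through which microglia bind C3 fragments, differed by −0.01 and 0.04 with overlapping groups, and C1qbp, a mitochondrial protein first described as a C1q binder, by −0.13.

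**Figure D4:**
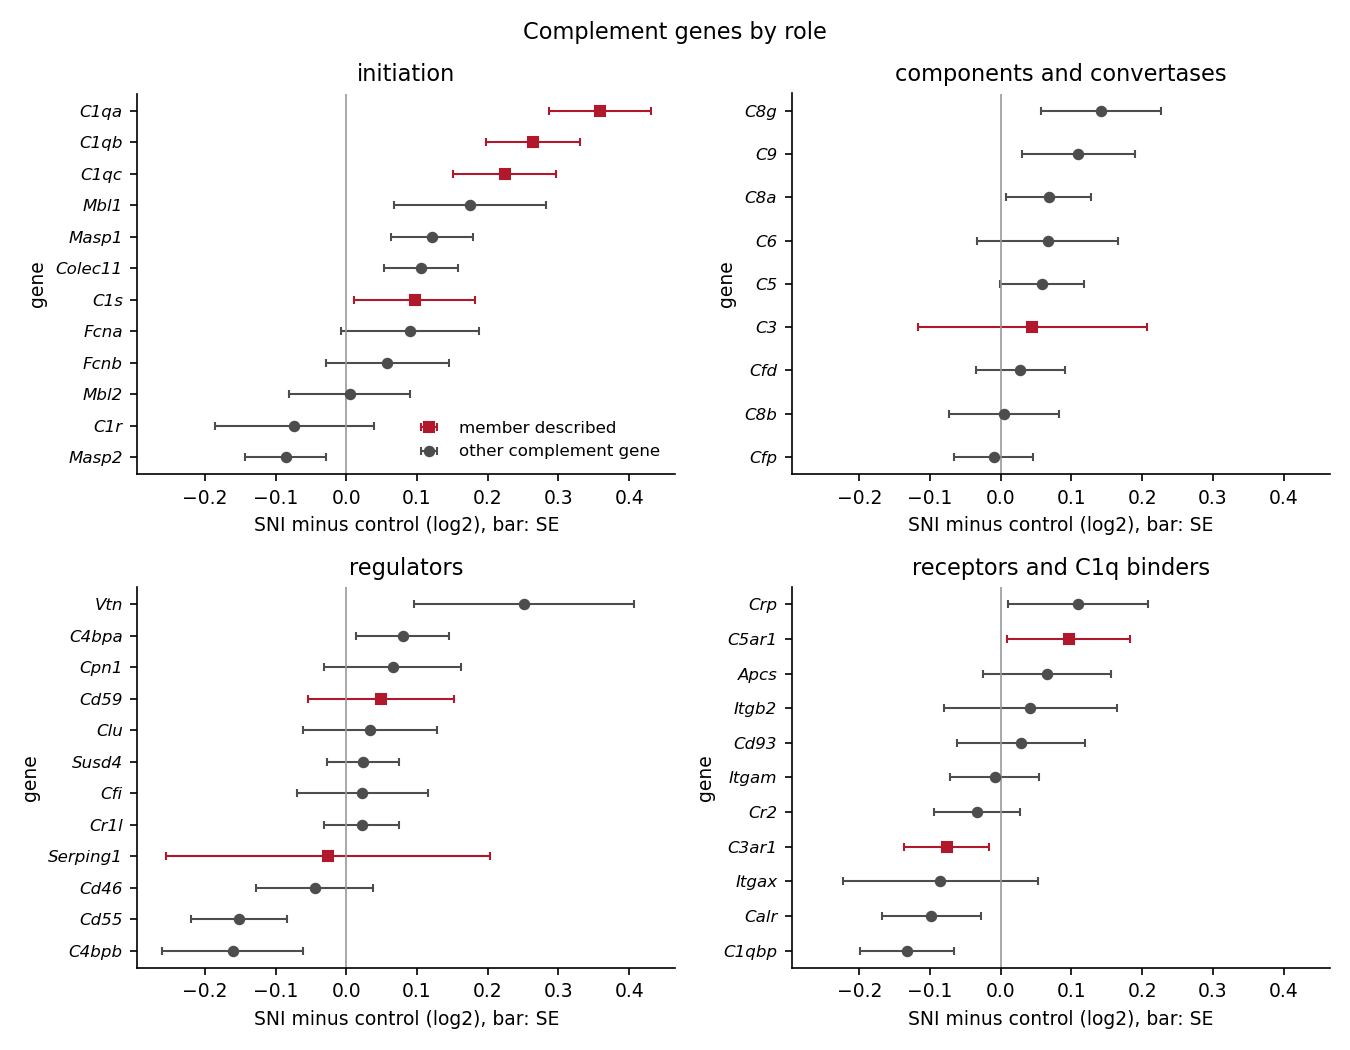
Difference between SNI and control samples (horizontal axis, log2, bars are limma SE, 3 samples per group) for the 9 members (squares) and 35 other complement genes (circles), in panels by role. C1qa, C1qb and C1qc have the highest differences among the initiators, and the other genes lie between −0.16 and 0.25.

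Proteins that share the globular C1q domain without belonging to complement showed no common direction, with 9 differences above 0 and 8 below. Of 22 listed, 17 were measured, with 1 higher and 2 lower at an unadjusted limma p under 0.05, where 3.96% of all genes were higher and 9.19% lower, and with 0 past an adjusted p of 0.05. These counts are close to that background. C1ql1, a synaptic C1q-like ligand, had 0.05, 0.07 and 0.08 in SNI samples 1, 2 and 3. In control samples 1, 2 and 3 it had −0.27, −0.05 and −0.06, a difference of 0.19 (SE 0.07, limma adjusted p = 0.305). Cbln1, cerebellin, a synaptic organizer, had −0.13, −0.10 and −0.19 in SNI samples 1, 2 and 3, against 0.34, 0.15 and 0.03 in control samples 1, 2 and 3, a difference of −0.32 (SE 0.08, limma adjusted p = 0.216). Both of its probe sets were lower in SNI, with differences of −0.42 and −0.21. C1qtnf2, a secreted relative of adiponectin, differed by −0.32 with overlapping groups.

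The genes whose profiles over the 6 samples lay nearest to the mean C1q profile were Rab43, Eral1, Akap5, Plcd1 and Ntn5, with root mean square distances from 0.0350 to 0.0417 on the log2 scale. The median gene was at 0.175. C1qb itself lay at 0.0235 from that mean and C1qa and C1qc at 0.0740 and 0.0765, so these 5 were nearer to the mean than the A and C chains were. Laptm5 was the nearest microglia marker, at rank 9. The likeness rests on 6 arrays that share the group difference and the shift of the hybridization controls, and is given as a description.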

How the data were processed

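RNA of the contralateral PL was read on Affymetrix GeneChip rat genome arrays in 3 SNI and 3 control samples, grouped by the sample labels. The authors applied RMA, log2 transformation and quantile normalization, and each row of the deposited log2 values also has a median of 0 (within 4.78e-07), a centring that the sources used here do not describe. No software version is given in those sources, and signal over background could not be read. The number of arrays limits the precision, and an exact permutation test of 3 against 3 cannot give a p below 0.1.

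Of 31099 probe sets, 57 array controls were left out. Symbols came from the platform annotation: 20826 probe sets carried 1 symbol, 436 several and 9780 none. Members were matched by symbol, and Cd59 through its RefSeq synonym and Entrez ID. The mean of the probe sets with 1 symbol gave 14217 genes. Differences, SE and two-sided p-values came from limma 3.58.1 (lmFit, eBayes, no covariates) in R 4.3.3, adjusted by Benjamini-Hochberg over all probe sets or all genes, and were tested on simulated data. Python 3.11.15, pandas 2.3.3 and matplotlib 3.10.9 were used for sequences, summaries and plots.

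The members and the gene lists were chosen with earlier results of these data known. Named are all members, up to 3 genes per list with the smallest unadjusted p under 0.05, list genes needed to show what did not pass, and the 5 nearest profiles. Same-numbered samples correlated at 0.01, −0.01 and −0.07 in their deviations from the group means, so the numbers were not taken as pairs. The alternatives were other scalings, the methods' t-test, robust variance, other gene summaries and marker lists, the hybridization controls as a covariate, the replicate block and each sample left out. The arrays of miRNA and the other assays of the study were not analysed here.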

Additional observations from a re-analysis of the deposited data

Results flagged for a closer look

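The hybridization controls, which no comparison of the report uses as a gene, were higher in SNI samples than in control samples. Their mean over 18 probe sets was 0.11 ± 0.07 in SNI and −0.16 ± 0.10 in control samples (SD, n = 3 each), a difference of 0.27 on the log2 scale. All 18 were higher in SNI by their means, and for 17 the groups did not overlap. Several of these probe sets read the same added transcript, so the 18 are not independent.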

How the results depend on the processing

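The C1q subunits were higher in SNI in 36 of 36 fits over 12 alternative settings, given as a description because the members were chosen on this contrast. Much of that count was fixed in advance. In this balanced design the replicate block, robust variance and the t-test cannot change a difference. Groups without overlap also keep their sign when 1 sample is left out. With the hybridization controls as a covariate the count of members at an unadjusted p under 0.05 was 1, against 3, and the count of other complement genes 2 (C9 and Cpn1), against 0. The differences of C1s (−0.16), C3 (−0.30), Serping1 (0.12) and C3ar1 (0.03) then had the opposite sign, and those of C1qa, C1qc and C5ar1 came to 0.16, 0.44 and 0.33. The count of other complement genes was 1 by the methods' t-test, 2 with quantile normalization repeated (Masp1 and Cd55), and from 0 to 7 with each sample left out in turn. The excess of C1q over microglia markers was 0.053 with the markers restricted to 6 genes, against 0.11, and 0.10 to 0.12 with each sample left out. With the replicate block the counts were 3 members and 0 other complement genes. The C1q difference of 0.28 cannot change with that block in a balanced design. The causes of these changes were not tested. Values relative to a median leave detection and abundance unknown, and 3 samples a group limit what could be shown for small differences.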
